A study of Drosophila melanogaster with 4 samples.

Results

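Cuticle protein genes were followed in RNA of eye-antennal imaginal discs, the larval epithelia that form the eye, antenna and head capsule of the adult fly *Drosophila melanogaster*. Members were taken by name, as every gene whose FlyBase symbol begins with Cpr, Twdl, Lcp, Ccp84, Edg or Acp65. That choice was made with earlier results of these data known. These prefixes matched 125 of the 14885 genes measured. The bare symbol Cpr belongs to NADPH-cytochrome P450 reductase, an enzyme and not a cuticle protein, so that gene was set aside and 124 members remained. They comprise 17 Lcp genes, 26 Tweedle (Twdl) genes, 70 Cpr genes and 11 genes of the Ccp84A, Edg and Acp65 groups, and 3 of them (Lcp1Psi, Lcp65APsi and TwdlU) are annotated as pseudogenes.

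The discs came from wandering larvae in the third instar. Mutant discs carried the glass allele gl[60j] and gave 2 libraries, which the series' design text calls technical replicates. Wild-type discs came from the strains RAL-208 and Canton S, with 1 library each, which the same text counts as biological replicates. Glass is the transcription factor that photoreceptor cells of the fly eye need to mature, and the genetic background of the mutant stock cannot be told apart from its genotype in this design. How many larvae or discs went into a library is not given in the sources used here.

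Insect cuticle is a layer of chitin fibres and structural proteins that epidermal cells secrete on their outer face and replace at each moult. Most Cpr, Lcp, Ccp84A, Edg and Acp65 proteins carry the Rebers-Riddiford motif, which binds chitin, whereas Tweedle proteins form a separate insect family of structural cuticle proteins. Pulses of the steroid ecdysone and the nuclear receptors it induces switch different sets of these genes on for the larval, pupal and adult cuticles. Imaginal discs lie inside the larva, and their cells lay down the cuticle of later stages at metamorphosis.

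Reads assigned to genes numbered 11292175 and 27044633 in the gl[60j] libraries, 11805345 in RAL-208 and 12118170 in Canton S. Levels are given as CPM, the reads of a gene scaled to 1000000 gene reads of its library, so that 1 read corresponds to 0.0886 and 0.0370 CPM in the gl[60j] libraries, 0.0847 CPM in RAL-208 and 0.0825 CPM in Canton S. The gl transcript itself was at 105 and 108 CPM in the gl[60j] libraries, 235 CPM in RAL-208 and 299 CPM in Canton S. All 9 transcription factor genes taken as markers of the disc, such as eyeless and eyes absent, were present in every library, with summed levels of 2698 to 2706 CPM in gl[60j] and 2405 to 2436 CPM in wild type. Bulk values cannot tell fewer cells of a type from less RNA per cell.

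Cuticle protein genes made up a small part of the RNA. All 124 together summed to 417 and 406 CPM in the gl[60j] libraries, 385 CPM in RAL-208 and 520 CPM in Canton S. At a minimum of 1 CPM in at least 1 library, 35 of the 124 genes were kept, namely 9 Lcp genes, 3 Tweedle genes, 22 Cpr genes and the ecdysone-dependent gene Edg91. Of these, 15 reached 1 CPM in every library, and 6 did so in a single library. The lowest kept gene was TwdlU at 1.02 CPM in its highest library, followed by Lcp65Ag2 at 1.10, and the highest of those left out were Ccp84Aa at 0.990 and Cpr47Ee at 0.908 CPM. The highest library of a kept cuticle gene was at a median of 4.66 CPM, against 39.0 CPM over all 9432 genes that passed the same minimum. Because a gene could enter through 1 high library, counts over the 35 genes only describe them.

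Another 35 members had 0 reads in all 4 libraries and 54 had reads but stayed under 1 CPM everywhere. Across both gl[60j] libraries, 0 reads allow a level of up to 0.0783 CPM, and in the wild types up to 0.254 CPM (RAL-208) and 0.248 CPM (Canton S), for counting error only. The Tweedle genes that neighbour each other from TwdlM to TwdlQ were the largest such group, with 0 reads for 11 of 13 genes and 1 read each, both in Canton S, for TwdlM and TwdlR. Of the 8 neighbours from Edg84A to Ccp84Aa, 0 reached 1 CPM. Edg84A, a cuticle gene of the prepupa, had 0 reads, and so did Acp65Aa, which encodes an adult cuticle protein. Members with near-identical copies, such as Lcp65Ab1 and Lcp65Ab2 or Cpr65Ax1 and Cpr65Ax2, were also listed at 0. Reads without a unique alignment, 15.9% to 18.9% of the counted total of a library, were assigned to no gene, so the level of such copies is uncertain.

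**Figure D1:**
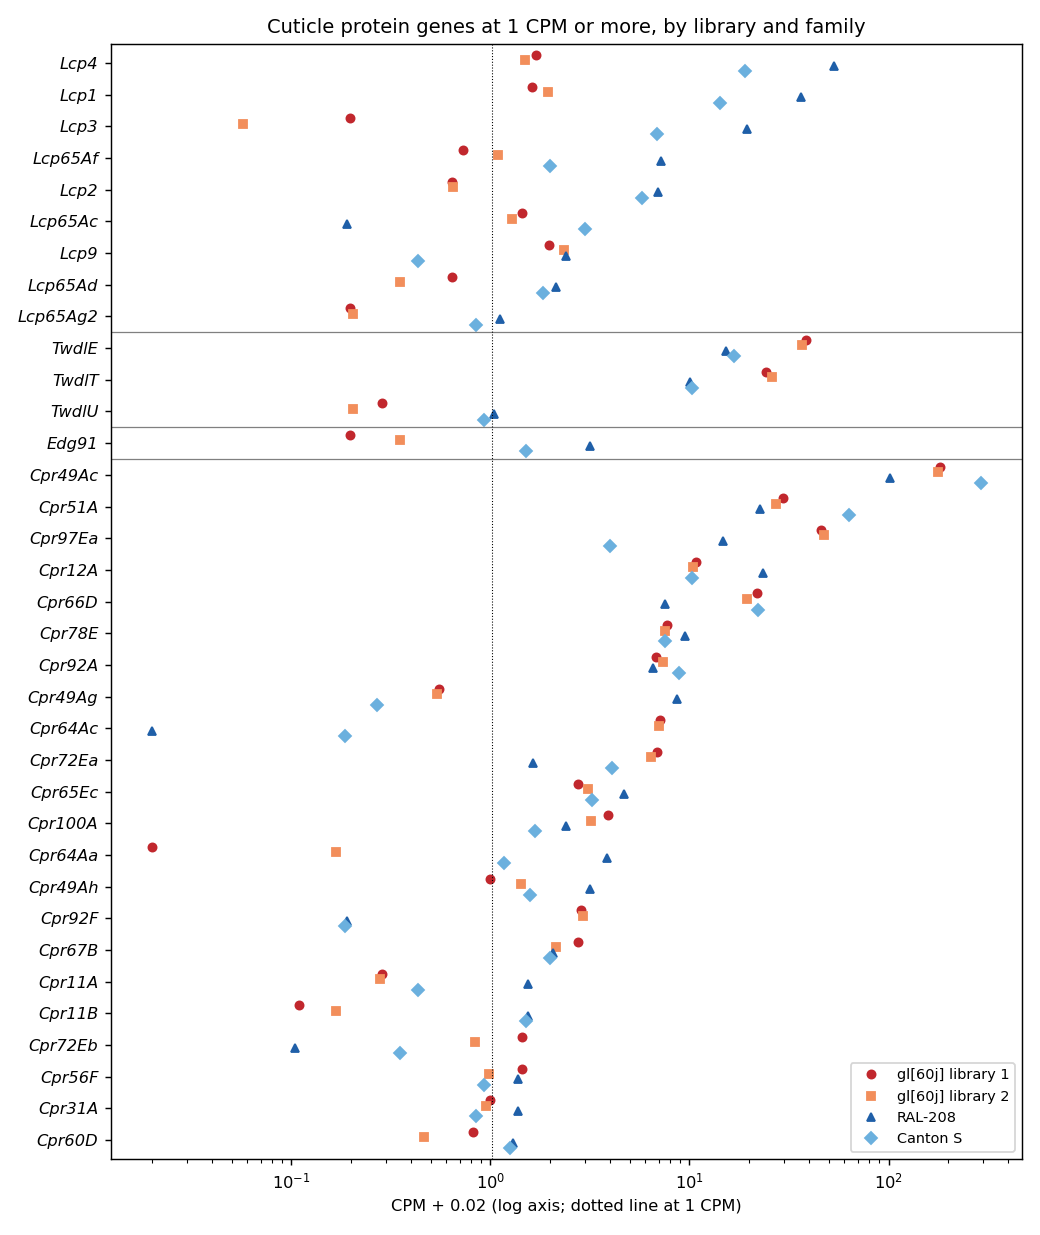
Levels of the 35 cuticle protein genes at 1 CPM or more in a library, as CPM plus 0.02 on a log axis, with 1 point for each library and horizontal lines between the Lcp, Tweedle, Edg and Cpr genes. Lcp1 to Lcp4 lie far lower in both gl[60j] libraries than in RAL-208 and Canton S, TwdlE and TwdlT lie higher, and Cpr49Ac has the highest CPM in every library, at 101 to 292 CPM with no correction for length.

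Levels were compared between cuticle genes by CPM per kb. Divided by coding length, so that genes of different size can be compared, Cpr49Ac had the highest mean in both genotypes, at 184 CPM per kb in gl[60j] (182 to 187 over its libraries) and 202 CPM per kb in wild type (104 in RAL-208 and 300.0 in Canton S). In RAL-208 alone Lcp4 led, at 158 CPM per kb. In gl[60j], Cpr49Ac was followed by Cpr51A at 65.3, TwdlE at 63.8, Cpr97Ea at 42.5 and TwdlT at 29.2 CPM per kb. The ranges of Cpr51A (62.7 to 67.9) and TwdlE (62.2 to 65.3) overlapped, whereas those of the next genes did not. These ranges span technical replicates, so they do not show the spread between mutant samples. In wild type the next places went to Lcp4 at 107, Cpr51A at 99.6, Lcp1 at 64.8 and Lcp3 at 39.2 CPM per kb. All neighbours among those wild-type places overlapped between the strains, as for Lcp4 (56.7 in Canton S and 158 in RAL-208) and Cpr51A (52.6 in RAL-208 and 147 in Canton S). Within each strain, though, Lcp4 lay above Lcp1 and Lcp1 above Lcp3. Lcp1 and Lcp3 were at 93.2 and 58.0 CPM per kb in RAL-208, and at 36.4 and 20.4 in Canton S.

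The genotypes were compared with edgeR's quasi-likelihood test across 9059 genes, 31 of them cuticle protein genes, with both gl[60j] libraries summed to 1 sample. RAL-208 and Canton S alone gave the error term, with 1 residual degree of freedom. In this test 0 of the 31 cuticle genes passed an adjusted p of 0.05, as did 0.0% of all genes tested, and the smallest adjusted p of a cuticle gene was 0.209. Before adjustment, p was under 0.05 for 9 cuticle genes that were lower and 5 that were higher in gl[60j], against 10.2% and 6.44% of all genes. DESeq2 on the same columns called 7 cuticle genes (5.96% of all genes), of which 4 were lower and 3 higher (4.28% and 1.68%). Entering the gl[60j] libraries as separate samples gave 11 calls (19.4% of all genes), 7 lower and 4 higher (11.3% and 8.05%), with p-values that are too small because those libraries are technical replicates.

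Sizes were therefore also read from a rule without a test, which asks that both gl[60j] libraries lie at least 2-fold below, or above, both wild types on the scale of CPM plus 1. It held for 5 of the 35 genes in the lower direction, where 5.41% of all 9432 genes met it, and for 5 in the higher direction, where 1.03% did. Those lower were Lcp1, Lcp2, Lcp3, Lcp4 and Cpr11B, and those higher were TwdlE, TwdlT, Cpr64Ac, Cpr92F and Cpr97Ea. Of these, Lcp2, Lcp3 and Cpr11B reached 1 CPM only in wild type, and Cpr64Ac and Cpr92F only in gl[60j]. Such genes entered the 35 only through the group where they are high, so the counts only describe these genes. Without a minimum size, 15 genes lay lower in both gl[60j] libraries than in both wild types and 9 higher, close to the 41.4% and 25.3% of all genes. The median log2 fold change of the 31 genes tested was -0.20, against 0.0014 over all genes tested.

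**Figure D2:**
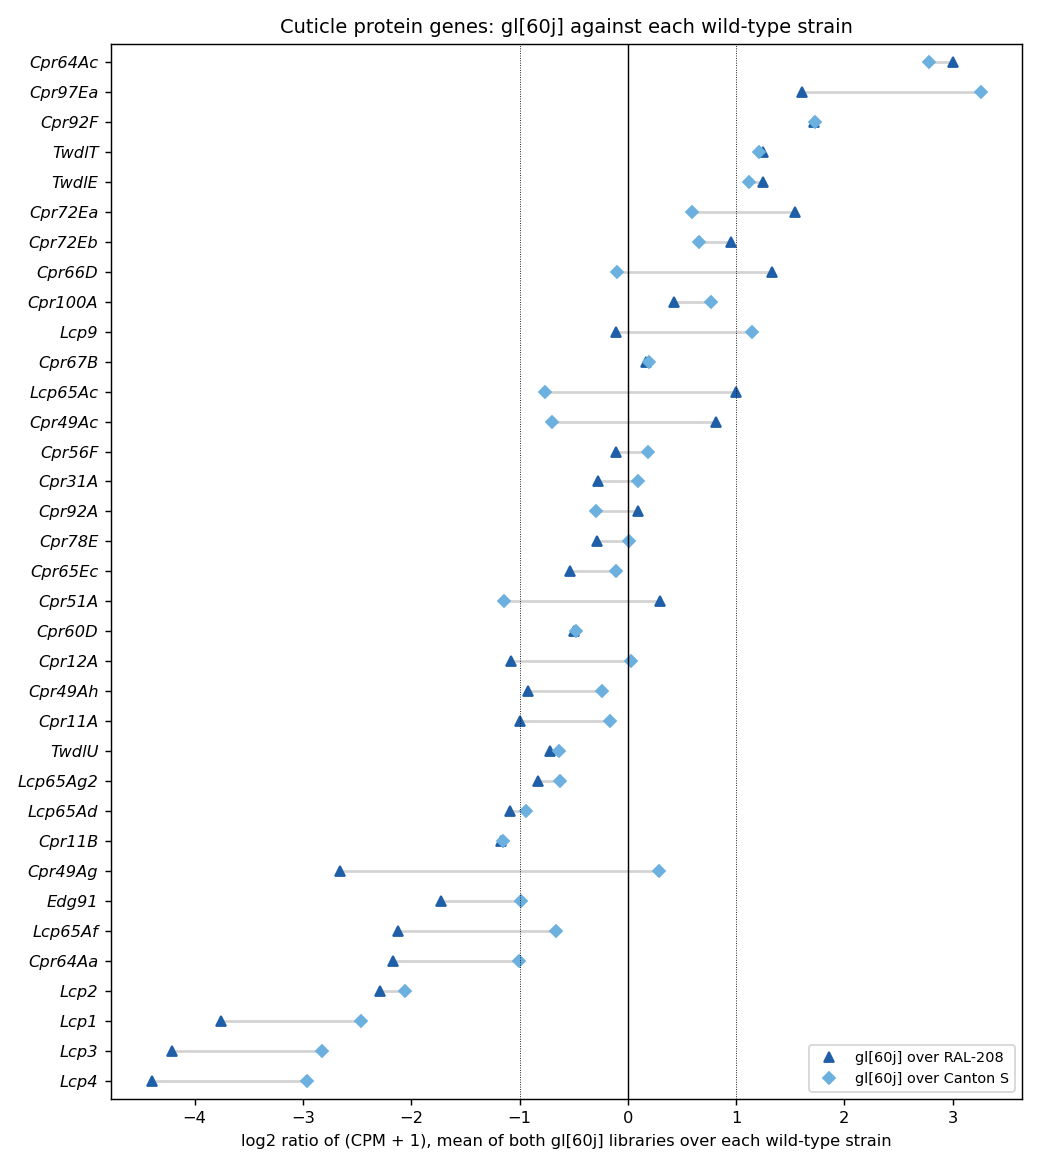
Log2 ratio of CPM plus 1 for each of the 35 genes, with the mean of both gl[60j] libraries set over RAL-208 (triangles) and over Canton S (diamonds) and dotted lines at 2-fold. Lcp1 to Lcp4 lie at the lower end against either strain and Cpr64Ac and Cpr97Ea at the upper end, and for genes such as Cpr49Ac, Cpr51A and Cpr49Ag the points for the strains fall on opposite sides of 0.

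The larval cuticle genes Lcp1 to Lcp4, neighbours on chromosome arm 2R, encode abundant proteins of the larval cuticle and were lower in gl[60j] discs. Lcp4 (FBgn0002535) was at 1.68 and 1.48 CPM in the gl[60j] libraries, against 53.1 CPM in RAL-208 and 19.1 CPM in Canton S. Lcp1 (FBgn0002531) was at 1.59 and 1.92 CPM in gl[60j], against 36.3 CPM in RAL-208 and 14.2 CPM in Canton S. Lcp2 (FBgn0002533) was at 0.620 and 0.629 CPM in gl[60j], against 6.95 and 5.78 CPM in the same strains. In all 3 genes the genotypes did not overlap, as in 41.4% of all genes in the lower direction. The fold, as a ratio of mean CPM, was 22.8 for Lcp4, 14.4 for Lcp1 and 10.2 for Lcp2. Against a single strain the fold was 33.6 (RAL-208) and 12.1 (Canton S) for Lcp4, and 20.7 and 8.07 for Lcp1. Lcp3 (FBgn0002534) had 2 and 1 reads in the gl[60j] libraries, against 19.5 CPM in RAL-208 and 6.85 CPM in Canton S, a ratio of pooled reads of 0.00598 (exact 95% interval 0.00123 to 0.0176). The fitted log2 fold changes were -4.47 (SE 0.89) for Lcp4, -3.71 (SE 0.80) for Lcp1, -3.26 (SE 0.53) for Lcp2 and -7.21 (SE 1.19) for Lcp3, with edgeR adjusted p between 0.209 and 0.218. With 1 library left out the estimate for Lcp3 lay between -8.13 and -6.08. DESeq2 gave adjusted p of 2.9e-09 for Lcp4, 4.83e-06 for Lcp1, 0.0102 for Lcp2 and 9.57e-08 for Lcp3. Together these genes held 0.977% (exact 95% interval 0.716% to 1.30%) and 1.003% (0.825% to 1.21%) of cuticle gene reads in the gl[60j] libraries, against 30.1% (28.7% to 31.4%) in RAL-208 and 8.82% (8.13% to 9.55%) in Canton S.

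The other Lcp genes, mostly of the Lcp65A neighbourhood on arm 3L, were less abundant and less uniform. Lcp65Af was at 0.708 and 1.07 CPM in gl[60j], against 7.20 CPM in RAL-208 and 1.98 CPM in Canton S. Lcp65Ad was at 0.620 and 0.333 CPM in gl[60j], against 2.12 and 1.82 CPM. Lcp65Ag2, which has near-identical copies, was at 0.177 and 0.185 CPM in gl[60j], against 1.10 and 0.825 CPM. These 3 genes did not overlap between the genotypes, as in 41.4% of all genes in the lower direction. They stayed short of the 2-fold rule, in which the added 1 CPM shrinks the folds of genes at low levels. By mean CPM the folds were 5.16 for Lcp65Af, 4.13 for Lcp65Ad and 5.32 for Lcp65Ag2. With Canton S at 0.825 CPM, Lcp65Ag2 could not meet the rule at any gl[60j] level. Lcp65Ac was at 1.42 and 1.26 CPM in gl[60j], between 0.169 CPM in RAL-208 and 2.97 CPM in Canton S. Lcp9 was at 1.95 and 2.33 CPM in gl[60j], against 2.37 CPM in RAL-208 and 0.413 CPM in Canton S. For both of these the spread between the strains took in the gl[60j] values. The fitted log2 fold change of Lcp65Ac was -0.20 with both strains and 2.99 without Canton S, and that of Lcp9 was 0.75 and, without Canton S, -0.017. Of the 8 Lcp genes tested, 5 had an unadjusted p under 0.05 in edgeR, all lower, where 10.2% of all genes did. After adjustment 0 passed, as did 0.0% of all genes tested.

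2 Tweedle genes were higher in gl[60j] discs, with close values within each genotype. TwdlE (FBgn0031957) was at 38.6 and 36.8 CPM in the gl[60j] libraries, against 15.2 CPM in RAL-208 and 16.8 CPM in Canton S. TwdlT (FBgn0029170) was at 24.2 and 26.0 CPM in gl[60j], against 9.995 CPM in RAL-208 and 10.2 CPM in Canton S. Both genes were higher in both gl[60j] libraries, as were 25.3% of all genes without a minimum size. They were 2.36-fold and 2.48-fold higher by mean CPM, while the wild-type strains lay close together. The log2 fold changes were 1.29 (SE 0.20) for TwdlE and 1.40 (SE 0.23) for TwdlT, with an edgeR adjusted p of 0.209 for both, and adjusted p of 0.033 and 0.0675 in DESeq2. In the current annotation an exon of TwdlE overlaps lectin-28C, which was at 13.3 and 11.4 CPM in gl[60j], 17.4 CPM in RAL-208 and 51.5 CPM in Canton S, and whether counting used strand is not given. TwdlU was at 0.266 and 0.185 CPM in gl[60j], against 1.02 and 0.908 CPM. The other 23 Tweedle genes stayed under 1 CPM, the highest at 0.443 CPM.

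Of the Edg, Ccp84A and Acp65 genes only Edg91, a gene first isolated for its dependence on ecdysone in disc epidermis, reached 1 CPM. It was at 0.177 and 0.333 CPM in gl[60j], against 3.13 CPM in RAL-208 and 1.49 CPM in Canton S. The genotypes did not overlap, as in 41.4% of all genes in the lower direction. The fold by mean CPM was 9.06, and edgeR gave a log2 fold change of -2.91 (SE 0.83) with an adjusted p of 0.259. Edg78E, another ecdysone-dependent gene, had 6 and 9 reads in gl[60j], 5 in RAL-208 and 3 in Canton S.

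Among the Cpr genes, named after the Rebers-Riddiford motif and their chromosome band, 3 were 2-fold higher by the rule in gl[60j] discs. Cpr97Ea (FBgn0039480) was at 45.6 and 47.6 CPM in gl[60j], against 14.7 CPM in RAL-208 and 3.96 CPM in Canton S. Cpr64Ac (FBgn0035512) was at 7.08 and 6.99 CPM in gl[60j], with 0 reads in RAL-208 and 2 reads in Canton S, a ratio of pooled reads of 83.9 (exact 95% interval 23.0 to 697). Cpr92F (FBgn0038819) was at 2.83 and 2.88 CPM in gl[60j], against 0.169 and 0.165 CPM in RAL-208 and Canton S, or 17.1-fold by mean CPM. In each of these genes both gl[60j] libraries lay above both strains, as in 25.3% of all genes without a minimum size. Those strains had 2 reads each for Cpr92F. The log2 fold changes were 2.41 (SE 0.79) for Cpr97Ea, 6.36 (SE 1.05) for Cpr64Ac and 4.12 (SE 0.60) for Cpr92F, with edgeR adjusted p of 0.291, 0.209 and 0.209. DESeq2 gave adjusted p of 0.0174 for Cpr97Ea and 0.0043 for Cpr64Ac, and left that of Cpr92F undefined. With few wild-type reads the estimate for Cpr64Ac ran from 5.43 without RAL-208 to 10.5 without Canton S. For Cpr97Ea it ran from 1.76 without Canton S to 3.63 without RAL-208.

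In the lower direction 1 Cpr gene met the rule. Cpr11B (FBgn0030398) was at 0.0886 and 0.148 CPM in gl[60j], which is 1 and 4 reads, against 1.52 CPM in RAL-208 and 1.49 CPM in Canton S. Its strains were nearly equal, the fold by mean CPM was 12.7, and edgeR gave a log2 fold change of -3.40 (SE 0.71) with an adjusted p of 0.216, while DESeq2 left its adjusted p undefined. Cpr64Aa, a near neighbour of Cpr64Ac, had 0 and 4 reads in gl[60j], against 3.81 CPM in RAL-208 and 1.16 CPM in Canton S. It was just short of the 2-fold rule on CPM plus 1, though 33.6-fold lower by mean CPM. Its log2 fold change was -4.42, but -3.34 without RAL-208 and -7.85 without the second gl[60j] library, which leaves it with 0 mutant reads.

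In 4 of the abundant Cpr genes the gl[60j] values lay between those of the strains. Cpr49Ac (FBgn0033725), the cuticle gene with the most reads in every library before correction for length, was at 182 and 177 CPM in gl[60j], between 101 CPM in RAL-208 and 292 CPM in Canton S. Cpr51A was at 29.3 and 27.1 CPM in gl[60j], between 22.7 and 63.4 CPM, and Cpr66D at 21.8 and 19.4 CPM in gl[60j], between 7.54 CPM in RAL-208 and 22.0 CPM in Canton S. Cpr12A was at 10.7 and 10.4 CPM in gl[60j], close to the 10.3 CPM of Canton S and under the 23.5 CPM of RAL-208. The fitted log2 fold changes changed sign on leaving out a strain in all 4 genes, for example -0.072 with both strains and 0.89 without Canton S for Cpr49Ac. That change largely restates that the gl[60j] values lay between the strains. The remaining 13 Cpr genes had between 0.0847 and 9.49 CPM in any library. Among them Cpr72Ea was at 6.82 and 6.40 CPM in gl[60j], against 1.61 and 4.04 CPM, and Cpr49Ag at 0.531 and 0.518 CPM, against 8.64 CPM in RAL-208 and 0.248 CPM in Canton S. Of the 19 Cpr genes tested, edgeR called 0, as it called 0.0% of all genes tested. An unadjusted p under 0.05 was found for 2 lower and 3 higher, against 10.2% and 6.44% of all genes. The lower count is therefore near the background.

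Neighbouring genes shared a direction in some groups and not in others. Lcp1, Lcp2, Lcp3 and Lcp4 were all lower in gl[60j], while Lcp1Psi between them had 0 reads. In the Cpr64A group, Cpr64Aa was lower in gl[60j] and Cpr64Ac higher, Cpr64Ab had 1 read in all, and Cpr64Ad had 2 and 1 reads in gl[60j], 4 in RAL-208 and 6 in Canton S. In the Cpr49A group of 8 genes, Cpr49Ac stood near Cpr49Ab and Cpr49Ad, both with 0 reads in all 4 libraries. Of the 19 neighbours from Lcp65Ag3 to Cpr65Az, 4 reached 1 CPM, all of them Lcp genes, and 9 had 0 reads. In the Cpr72E group, Cpr72Ea and Cpr72Eb lay higher in both gl[60j] libraries than in both strains, as did 25.3% of all genes. Cpr72Ec had 0 and 1 reads in gl[60j], 1 in RAL-208 and 0 in Canton S.

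**Figure D3:**
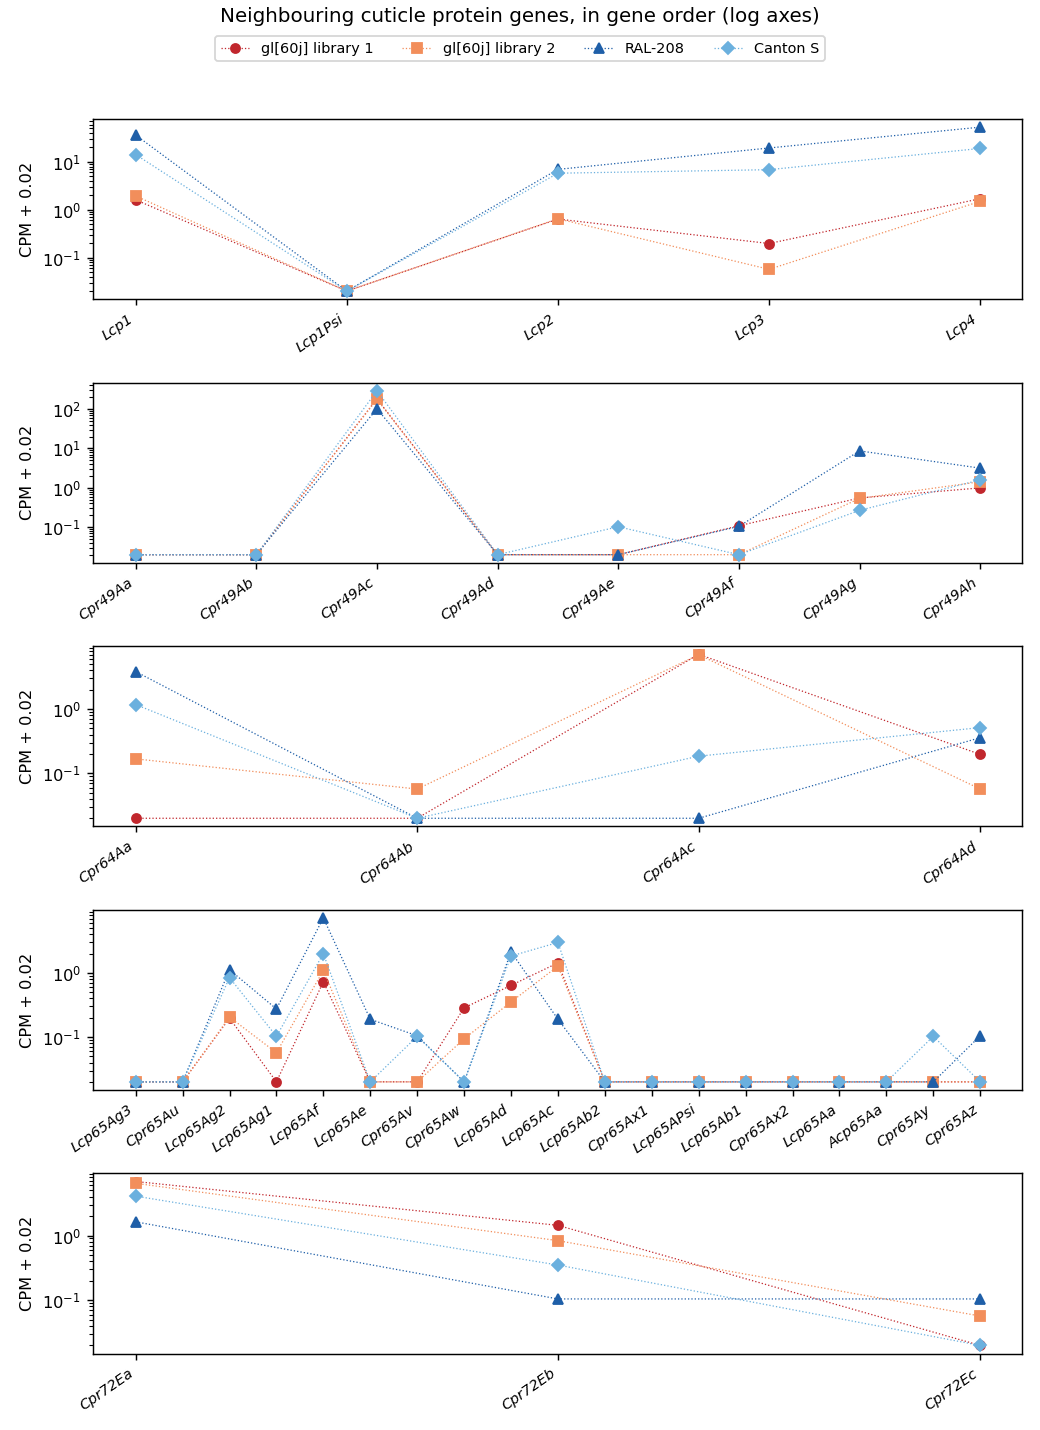
Levels of 5 groups of neighbouring cuticle protein genes in their order along the chromosome, as CPM plus 0.02 on log axes, with 1 symbol for each library and dotted lines that only guide the eye. Genes at 1 CPM or more stand beside genes with 0 reads, as Cpr49Ac does beside Cpr49Ab and Cpr49Ad, and Cpr64Aa and Cpr64Ac are ordered in opposite ways between gl[60j] and the strains.

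The wild-type strains differed from each other in many cuticle genes. RAL-208 and Canton S lay at least 2-fold apart, on CPM plus 1, in 13 of the 35 genes, against 7.25% of all genes. RAL-208 was higher in 9 (4.15% of all genes) and lower in 4 (3.11%). With 1 library for each strain there is no test, and the intervals given are exact 95% intervals for counting error only. RAL-208 was higher for Lcp1 (ratio 2.56, interval 2.14 to 3.07), Lcp3 (2.84, 2.20 to 3.70), Lcp4 (2.79, 2.39 to 3.25) and Lcp65Af (3.64, 2.29 to 5.98). It was also higher for Lcp9 (5.75, 2.19 to 19.1), Cpr97Ea (3.70, 2.67 to 5.21), Cpr12A (2.27, 1.84 to 2.83) and Cpr64Aa (3.30, 1.78 to 6.51). Cpr49Ag had 102 reads in RAL-208 and 3 in Canton S, a ratio of 34.9 (11.6 to 172), with the gl[60j] libraries near Canton S.

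RAL-208 was lower for Cpr49Ac (ratio 0.348, interval 0.326 to 0.372), Cpr51A (0.358, 0.311 to 0.412) and Cpr66D (0.342, 0.266 to 0.436). Lcp65Ac had 2 reads in RAL-208 and 36 in Canton S, a ratio of 0.057 (0.00665 to 0.222). Lcp2 differed less than its neighbours (1.20, 0.863 to 1.68), and the intervals of TwdlE (0.910, 0.741 to 1.12) and TwdlT (0.977, 0.753 to 1.27) included 1. On the scale of log2(CPM + 1), the gap between the strains exceeded the gap between the genotype means in 15 of the 35 genes (42.9%), close to the 42.4% of all genes. The gl[60j] libraries differed from each other at an unadjusted exact binomial p under 0.05 in 0 of the 35 genes, against 12.9% of all genes at 1 CPM or more, which are mostly more abundant.

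**Figure D4:**
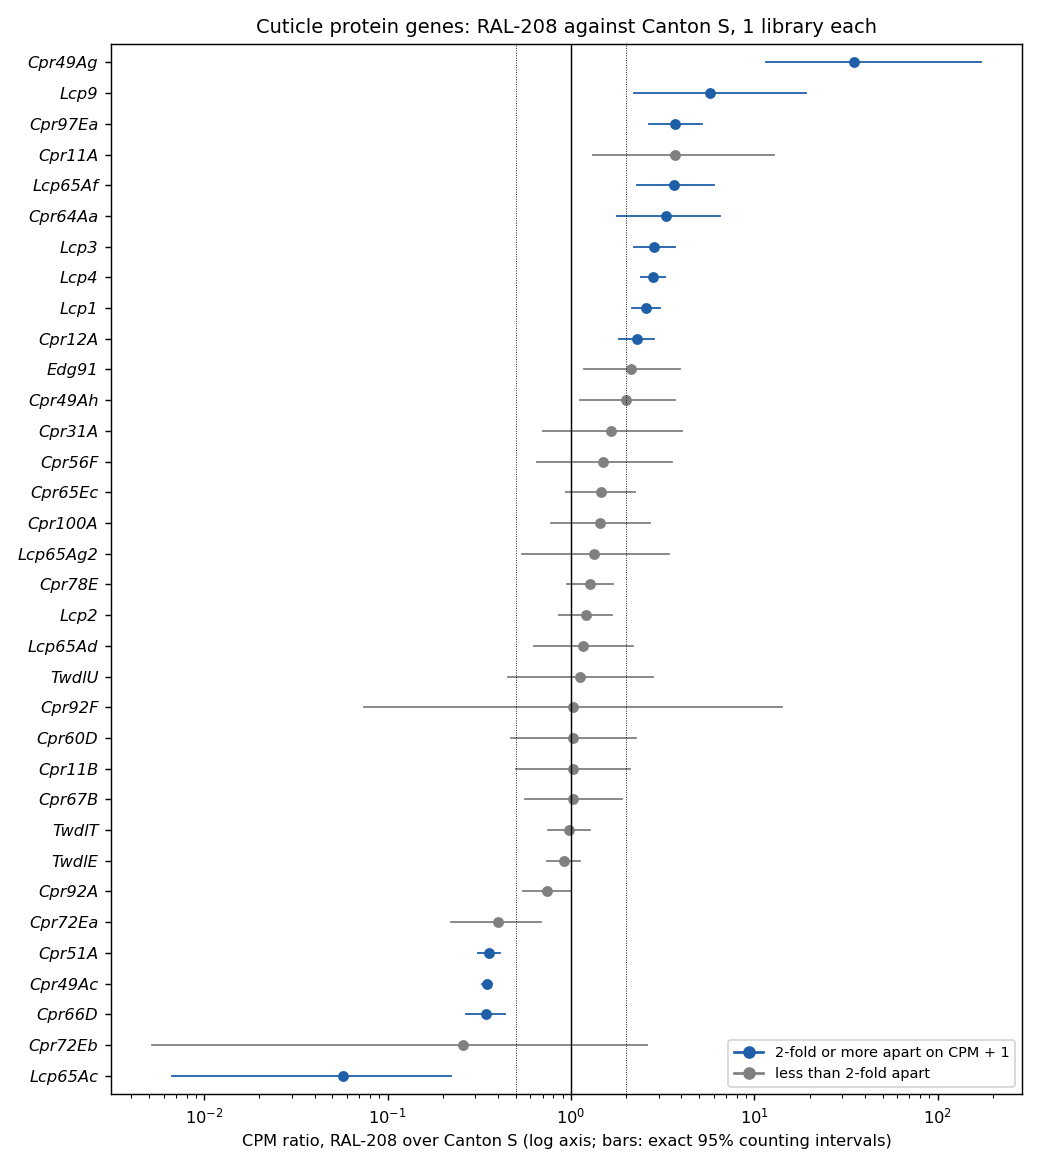
Ratio of CPM in RAL-208 over Canton S on a log axis, with exact 95% counting intervals, for 34 of the 35 genes. Cpr64Ac is not drawn, since it had 0 reads in RAL-208. Cpr49Ag lies highest and Lcp65Ac lowest, Lcp1, Lcp3 and Lcp4 lie together between 2.56 and 2.84, and TwdlE and TwdlT lie near 1.

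Other genes of cuticle formation were taken from lists of the pathway. In none of these lists did edgeR with summed libraries call a member, but it called 0.0% of all genes tested. The counts here are those meeting the 2-fold rule among genes at 1 CPM or more in a library. Over all genes that share was 5.41% lower and 1.03% higher, and with so few genes in a list a count of 1 lower is close to it. The most abundant gene of a list is named by CPM, with no correction for length. Of 9 genes of chitin synthesis and assembly, 1 was lower and 0 higher. The lower gene was expansion (exp), at 12.8 and 12.7 CPM in gl[60j], against 31.6 CPM in RAL-208 and 39.8 CPM in Canton S, while the chitin synthase gene kkv was at 481 and 478 CPM, against 362 and 457 CPM. The most abundant gene of that list was the chitin deacetylase gene verm, at 684 and 728 CPM, against 412 and 550 CPM. Of 15 genes for chitin-binding proteins, chitinases and the chitinase-like Idgf proteins, 3 were lower and 0 higher. They were obst-B (52.6 and 51.4 CPM in gl[60j], against 118 and 118 CPM), Idgf5 (0.266 and 0.148 CPM, against 5.34 and 5.20 CPM) and Idgf6 (76.5 and 73.1 CPM, against 364 and 170 CPM), and the most abundant was Cht10, at 2397 and 2328 CPM, against 1627 and 2058 CPM.

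Of 12 genes listed for the apical matrix, most of them for zona pellucida proteins that link epidermal cells to their cuticle, 2 were higher and 0 lower. These were miniature (m), at 20.6 and 19.4 CPM in gl[60j], against 4.40 and 6.52 CPM, and morpheyus (mey), at 48.3 and 44.9 CPM, against 13.5 and 21.2 CPM, and the most abundant was pio, at 766 and 771 CPM, against 545 and 670 CPM. Of 15 genes of cuticle tanning, 1 was lower, the dopa decarboxylase gene Ddc (2.04 and 2.18 CPM in gl[60j], against 7.12 and 6.44 CPM), and 0 were higher. Most of the list did not follow Ddc: its 14 genes tested had a median log2 fold change of 0.80, against 0.0014 over all genes tested. Unadjusted edgeR p was under 0.05 for 2 higher and 1 lower (6.44% and 10.2% of all genes). Just short of the higher rule were ple (39.4 and 33.5 CPM, against 5.59 and 16.6 CPM) and b (9.30 and 7.32 CPM, against 3.39 and 2.89 CPM). The most abundant tanning gene, Catsup, was at 204 and 189 CPM, against 139 and 169 CPM. Among 4 other structural genes Vajk2 was higher and the most abundant, at 42.0 and 41.5 CPM, against 10.3 CPM in RAL-208 and 1.90 CPM in Canton S.

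Of 12 regulators of the ecdysone cascade, 1 was higher and 1 lower by the same rule (1.03% and 5.41% of all genes). Hr3, a nuclear receptor induced by ecdysone, was at 269.9 and 262 CPM in gl[60j], against 52.3 CPM in RAL-208 and 94.5 CPM in Canton S. ftz-f1, a nuclear receptor that acts after it and is known to activate Edg84A in the prepupa, was at 10.7 and 8.87 CPM, against 32.2 and 25.1 CPM. The most abundant regulator gene was crol, at 899 and 892 CPM, against 1013 and 984 CPM. Whether these regulators have a part in the cuticle gene values was not tested.

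Markers of other tissues also differed between these libraries. Of 7 fat body genes, 4 met the 2-fold rule as lower and 0 as higher, where 5.41% and 1.03% of all genes did. In lists this short a count of 1 lower is close to that share. The fat body list summed to 2896 to 2987 CPM in gl[60j], against 12242 CPM in RAL-208 and 21118 CPM in Canton S. The larval serum protein gene Lsp1beta was at 31.9 and 31.1 CPM in gl[60j], against 5065 CPM in RAL-208 and 2043 CPM in Canton S. Between the strains, Lsp1beta was the 1 fat body gene at least 2-fold higher in RAL-208, and 4 (Lsp1alpha, Lsp2, Fbp1 and Fbp2) were at least 2-fold lower there. Fbp1, a fat body gene that ecdysone induces late in larval life, was at 1894 and 1840 CPM in gl[60j], against 56.8 CPM in RAL-208 and 7835 CPM in Canton S. The 6 haemocyte genes summed to 340 to 358 CPM in gl[60j], against 585 and 303 CPM in RAL-208 and Canton S, with 1 lower by the rule. The 6 muscle genes summed to 165 to 174 CPM in gl[60j], against 258 and 176 CPM. The 6 salivary gland genes summed to 93.7 to 96.6 CPM in gl[60j], against 46.9 and 147 CPM. The 3 ring gland genes summed to 225 to 226 CPM, against 127 and 252 CPM, and went in different directions. Of these, Akh was lower by the rule, at 0.354 and 0.111 CPM, against 18.8 and 26.0 CPM. In contrast, sad lay above both strains (207 and 209 CPM, against 101 and 194 CPM), as did 25.3% of all genes. Between the strains lay dib, at 17.6 and 16.6 CPM, against 7.96 and 31.6 CPM. Of 4 tracheal genes, trachealess (trh) was at 4.69 and 4.73 CPM in gl[60j], against 31.6 and 18.5 CPM, and was the 1 gene lower by the rule. Gasp, serp and verm, which are also on the chitin lists, brought the tracheal sum to 1417 to 1471 CPM in gl[60j], against 1046 and 1174 CPM. In none of these lists was a measured marker at 0 in all libraries. The part of any of these tissues in the cuticle gene values was not tested.

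**Figure D5:**
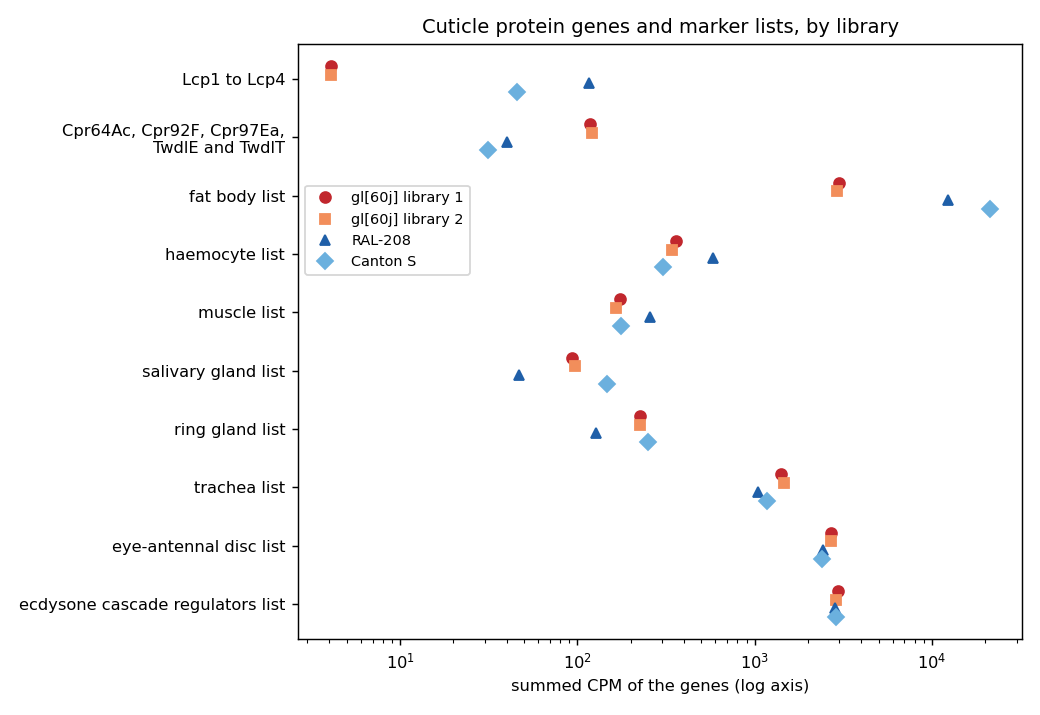
Summed CPM, on a log axis, of Lcp1 to Lcp4, of the 5 cuticle genes higher in gl[60j] by the 2-fold rule, and of the marker lists, with 1 point for each library. Lcp1 to Lcp4 sum to 4.07 CPM in both gl[60j] libraries, against 116 CPM in RAL-208 and 45.9 CPM in Canton S, and the 5 higher genes sum to 118 and 120.2 CPM, against 40.1 and 31.3 CPM.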

How the data were processed

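Raw read counts per FlyBase gene were deposited by the authors, with 1 table per library and no normalization. Per the submitters' processing notes, CASAVA 1.8, TopHat2 2.0 and HTSeq were used with the build dm3, and per the labels' protocols the libraries were TruSeq. No source used here gives the counting mode, the use of strand or the annotation release. Summary lines of the counter were left out: 5.04% to 7.16% of counted reads lay outside genes and 1.35% to 1.44% were ambiguous. Symbols, neighbours and longest coding lengths came from the Ensembl annotation of BDGP6, matched on FlyBase identifiers. Of 14885 genes, 1140 had no symbol. Since BDGP6 is not dm3, no coordinates are given. Neighbours are members with at most 3 protein-coding genes between them.

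The test was edgeR 4.0.16 (R 4.3.3) with TMM, filterByExpr on the 4 libraries and Benjamini-Hochberg adjustment over 9059 genes. The common dispersion was 0.0627. DESeq2 1.42.0 was an alternative. An adjusted p that DESeq2 left undefined stayed undefined. On counts simulated with a dispersion shared by all genes, the summed edgeR fit recovered 99.5% of 8-fold changes, with 11.2 false calls a run on average. In the real data that fit called 0.0% of all genes, so the simulation does not show its power here. Folds by mean CPM carry no TMM scaling. Exact intervals and the floor of 3 reads cover counting error only, as reads are not independent molecules. P-values measure the spread between 1 library of each wild-type strain, which may be technical. Per-library values are given for cuticle genes that reach 10 CPM or meet a 2-fold rule, and for others of the 35 that were picked after their values were seen. The members, gene lists and rules were chosen with earlier results of these data known.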

Additional observations from a re-analysis of the deposited data

How the results depend on the processing

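The counts of cuticle genes called were 0 in edgeR with summed libraries (0.0% of all genes) and 7 with DESeq2 (5.96% of all genes). With the gl[60j] libraries entered separately edgeR called 11 (19.4% of all genes), with p-values too small because those libraries are technical replicates. The edgeR count with summed libraries stayed at 0 with RLE size factors, without a low-count filter and without either gl[60j] library (0 to 0). Without a wild-type strain no residual degrees of freedom are left, so only values are given. The median log2 fold change of -0.20 was -0.18 with separate gl[60j] libraries, -0.27 without scaling, -0.47 without the low-count filter, which brings in genes of few reads, and -0.25 to -0.14 with 1 library left out. The 5 lower genes of the 2-fold rule became 10 with CPM plus 0.25 (7.74% of all genes), and 6 to 10 with 1 library left out (6.27% to 11.1% of all genes). The 10 and the 11.1% are those without Canton S. The 5 higher genes were 4 to 7 under every alternative run (0.943% to 2.9% of all genes), and the 13 genes apart between the strains 10 to 15 (5.93% to 10.2%). Of 144 alternative estimates for 18 genes, 6 changed sign, all on leaving out a strain and all in genes with gl[60j] values between the strains. Another 16 passed an adjusted p of 0.05, all with DESeq2 or separate gl[60j] libraries. Ranges with 1 library left out were -1.12 to 2.99 for Lcp65Ac, -0.017 to 2.48 for Lcp9, -1.08 to 0.094 for Cpr12A, -0.64 to 0.89 for Cpr49Ac, -1.12 to 0.37 for Cpr51A and -0.067 to 1.49 for Cpr66D. No paired analysis was run, since the gl[60j] technical replicates have no counterpart among the wild-type strains. Depth limits the genes with few reads, such as Lcp3 and Cpr64Ac.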
